A study of Arabidopsis thaliana with 12 samples.

Results

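The 62 genes described here were ranked lower on every array made from illuminated Arabidopsis thaliana plants than on any array from plants in darkness. They were chosen from the measured values themselves. Each had a probe that matched exactly 1 gene and a value above 0 on all 12 arrays, and its highest rank on the 6 light arrays was below its lowest rank on the 6 dark arrays. Of 692 probes with 1 gene, 494 were above 0 on all arrays and 74 of these met the rank rule (15.0%). The rule leaves out 14 named genes, of which 12 had met it. In the other direction 67 of the 494 (13.6%) met the mirror rule, and over all 2450 probes above 0 on every array the lower and higher shares were both 14.8%. Since the arrays decided who is a member, the difference between darkness and light is given below as a description without a test.

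All plants were wild type of the Columbia-0 accession, the common laboratory strain, with no transgene or mutation named in the labels. One group of 6 samples came from plants kept in the dark overnight. The other group of 6 came from plants that, after such a night, had 1 h of light. Tissue, plant age and harvest time are not given in the sources used here. Whether the dark plants were harvested 1 h earlier is thus not known, so effects of light and of an extra hour after the night cannot be told apart.

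At the end of the night an Arabidopsis leaf lives on stored starch and respiration, and its chloroplasts make no energy from light. Dawn starts photosynthesis, and many transcripts change within the first hour through photoreceptors, sugars, the redox state of the plastid and the circadian clock. A steady-state transcript level can fall only as fast as the existing RNA decays, so a fall within 1 h is limited by RNA turnover. Levels of transcripts in whole samples do not separate fewer cells of a type from less RNA per cell.

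Each array gave 1 relative intensity for each of 3439 probes, on a scale that ends at 100. The sum of an array was 2943 to 3683, with 11.7 to 15.7% of its values at 0. Consecutive replicate numbers are taken below as pairs (1 and 2, 3 and 4, 5 and 6). Within such a pair the members' median log2 SD was 0.09 in darkness and 0.18 in light. The similarity of whole arrays within pairs is not given here, and the labels do not say whether samples are separate plants. Levels below are quantile-scaled intensities, which keep the order of probes within an array. Log2 changes are light minus dark, with SE from limma on all 12 arrays, and these SE are too small if consecutive numbers measured the same RNA. Levels are not compared between genes as amounts of RNA, because each probe has its own brightness. Of the green tissue markers on single-gene probes, the antenna gene LHB1B2 lay between 13.4 and 26.7 in darkness and the photosystem I gene PSAN between 3.37 and 4.82. The photosystem II genes PSBW and PSBY lay at 68.4 to 99.0 and 1.89 to 2.76 in darkness. PSB27, also of photosystem II, differed between sets of arrays. In darkness it was at 0.341 to 0.522 in numbers 1 and 2 and at 2.86 to 3.37 in numbers 3 to 6. In light it was at 0.708 to 0.723 and at 2.21 to 2.59. The root, seed and pollen markers had no single-gene probe.

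Most members differed moderately between the groups. The median log2 change of the 62 members was -0.95, a 1.93-fold lower level, against -0.01 over the 2966 probes tested and -0.04 over the 494 eligible probes. The smallest difference was 1.31-fold and the largest 4.66-fold. By size, 4 members were lower by over 4-fold, 25 by 2- to 4-fold and 33 by under 2-fold. Of all 494 eligible probes, members included, 50 (10.1%) were over 2-fold lower, and the share over 4-fold was not taken. Without light replicate 1 the count of members over 4-fold lower was 2, and without any other single array it was between 3 and 5. In darkness the median member stood at the 87.2 percentile of all probes and in light at the 70.4 percentile, while the median eligible probe stood at the 64.0 percentile in darkness. Of the members, 46 were above the 75th percentile in darkness and 3 below the 50th. The rule asks that each member's dark ranks lie above its own light ranks, and it sets no level for either. The drop in percentile thus describes the selection, and the distance from the median eligible probe was not tested. The groups of members by role used below were formed after the members were known.

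**Figure D1:**
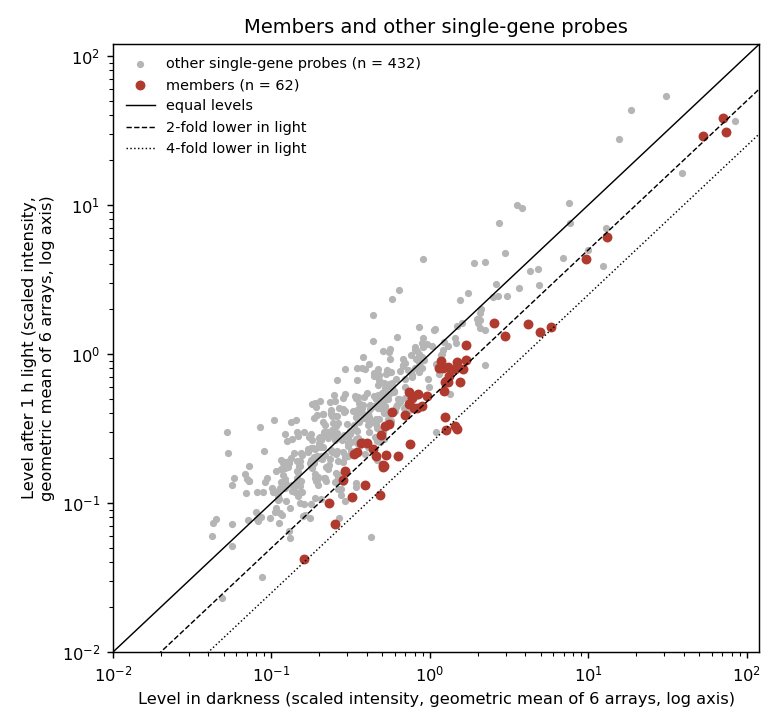
Each point is a single-gene probe above 0 on all 12 arrays, with its geometric mean level over the 6 dark arrays on the x axis and over the 6 light arrays on the y axis (scaled intensity, log axes). The 62 members (red) lie below the line of equal levels, 29 of them beyond the dashed 2-fold line and 4 beyond the dotted 4-fold line. Of all 494 probes shown, members included, 50 (10.1%) lie beyond the 2-fold line.

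Calcium and ion signalling was represented by 3 members, with log2 changes between -1.92 and -0.89. AT4G32060 encodes a mitochondrial EF-hand protein of the calcium uptake family, which in animals gates the calcium uniporter. It lay between 4.54 and 6.87 in darkness (median 6.09) and between 1.25 and 1.84 in light (median 1.53), a log2 change of -1.92 (SE 0.14). The lowest dark array was thus 2.47 times the highest light array. GLR2.7, a glutamate receptor-like channel, lay between 0.433 and 0.585 in darkness (median 0.504) and between 0.0415 and 0.285 in light (median 0.217). Its log2 change of -1.54 (SE 0.40) rested partly on light replicate 3, the lowest array, and was -1.14 without it. CML30, a calmodulin-like calcium sensor, went from 1.40 to 2.11 (median 1.60) down to 0.766 to 1.10 (median 0.888), a log2 change of -0.89 (SE 0.14). Of 8 loci with a CML symbol in the gene table used, 1 other had a probe of its own, CML41, which did not pass (log2 change 0.07, limma adjusted p = 0.77).

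Golgi transport was represented by 3 subunits of the conserved oligomeric Golgi complex, the tether that holds retrograde vesicles at the Golgi. The set of 8 subunit loci was looked up after the members were known, and all 3 loci with a single-gene probe were members. AT4G24840, the second subunit, lay between 0.201 and 0.383 in darkness (median 0.229) and between 0.0393 and 0.128 in light (median 0.0787), a log2 change of -1.79 (SE 0.29) that was -0.79 with the floor for low values raised to the 25% quantile. AT1G67930, the fifth subunit, lay between 0.197 and 0.334 (median 0.317) and then between 0.109 and 0.176 (median 0.153). Its log2 change was -0.99 (SE 0.18), and its groups overlapped on the values as deposited and under 75th percentile centring. AT1G73430, the third subunit, had a dark range of 2.32 to 2.76 (median 2.55) and a light range of 1.32 to 1.86 (median 1.71), a log2 change of -0.65 (SE 0.11). With a background of 15.0% of probes meeting the rule and a set found after the fact, these 3 are a description of the complex on these arrays. AT4G19900, a glycosyltransferase of the alpha-1,4 family, was at 10.7 to 14.6 in darkness (median 13.9). In light its scaled values were close together, at 5.92 to 6.18 (median 6.04), with a log2 change of -1.11 (SE 0.10). As deposited, its light values were at 5.28 to 6.24.

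**Figure D2:**
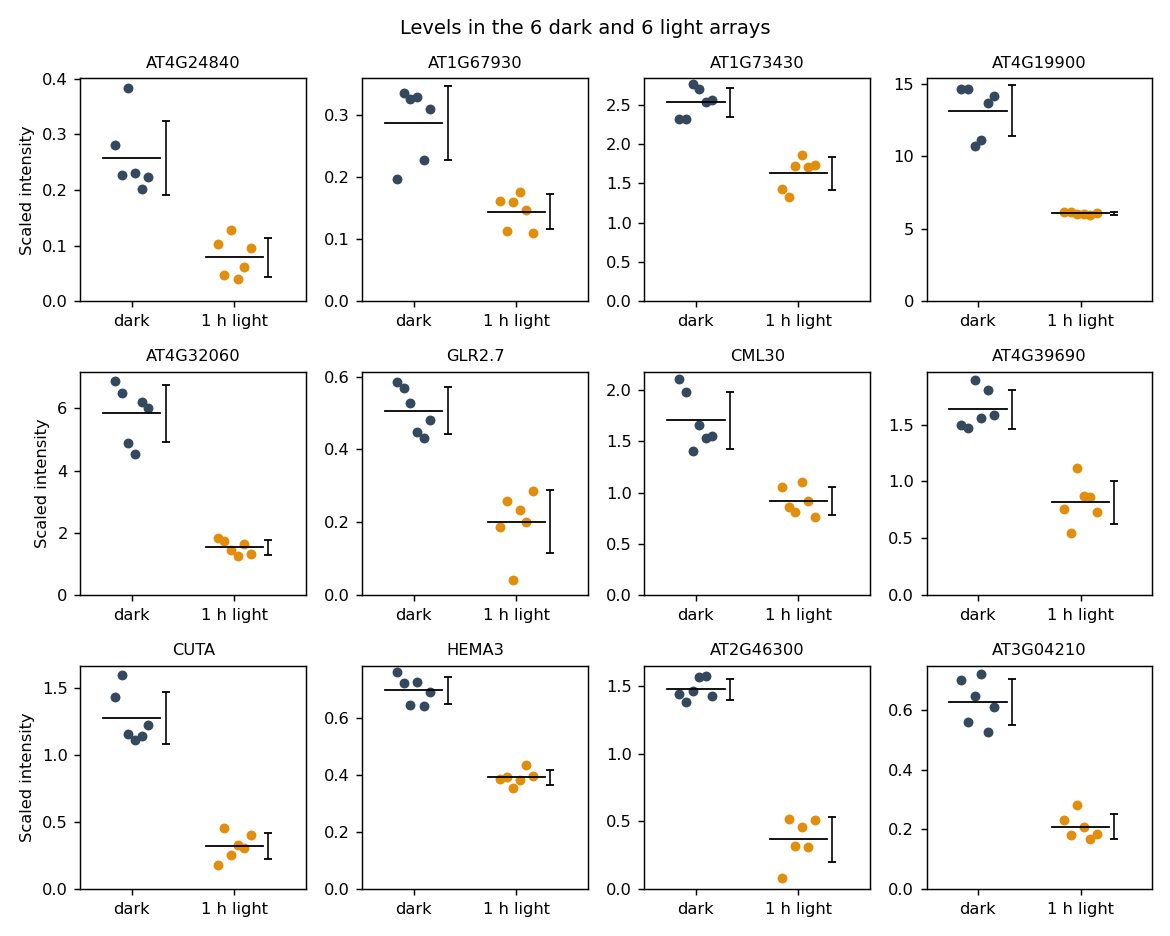
Scaled intensity (linear axes from 0) of 12 members with a known role in the 6 dark arrays (dark blue) and the 6 light arrays (orange), one point per array in order of replicate number. Horizontal lines are means and error bars SD over 6 arrays. No dark and light values of a gene overlap, because of the rank rule. Single low light arrays stand out for GLR2.7 at 0.0415 and AT2G46300 at 0.0834.

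Protein kinases contributed 5 members, with log2 changes between -2.11 and -0.66. AT2G31800, a kinase of the integrin-linked, Raf-like type, lay between 0.256 and 0.651 in darkness (median 0.522) and between 0.0126 and 0.230 in light (median 0.163). Its log2 change of -2.11 carried the widest SE of the members (0.63), and without light replicate 4, the lowest array, it was -1.49. Its groups overlapped under 75th percentile centring. AT1G61590, a receptor-like cytoplasmic kinase, lay between 0.276 and 0.415 in darkness and between 0.0786 and 0.163 in light, a log2 change of -1.57 (SE 0.18). AT2G39360, a receptor kinase of the family that senses the cell wall, was at 1.09 to 1.44 in darkness and 0.438 to 0.662 in light, with a log2 change of -1.14 (SE 0.12). AT2G23070, known as CKA4, is the plastid catalytic subunit of casein kinase 2, which phosphorylates the plastid transcription machinery. It lay between 0.245 and 0.362 and then between 0.112 and 0.222, a log2 change of -0.84 (SE 0.17), and its groups overlapped under 75th percentile centring. AT3G57120 met the rule by the smallest margin of all, as given below.

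Among the members with a plastid role, CUTA, a relative of a copper tolerance protein of Escherichia coli, lay between 1.11 and 1.59 in darkness (median 1.19) and between 0.180 and 0.453 in light (median 0.316). Its lowest dark array was 2.44 times its highest light array, and the log2 change was -2.04 (SE 0.21). HEMA3 is named for glutamyl-tRNA reductase, the enzyme that commits glutamate to chlorophyll and heme synthesis. It had a dark range of 0.643 to 0.764 (median 0.708) and a light range of 0.355 to 0.435 (median 0.391), with a log2 change of -0.83 (SE 0.09). The other HEMA genes had no single-gene probe. AT3G44020, listed as a thylakoid lumen protein, lay between 0.956 and 1.72 in darkness and between 0.443 and 0.946 in light, and its groups nearly touched (log2 change -0.95, SE 0.21).

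The 4 brightest members changed in size with the scaling of the arrays. AT2G27290 was at 58.7 to 88.8 in darkness (median 78.2) and 26.7 to 36.6 in light (median 31.7), a log2 change of -1.25 (SE 0.14). AT4G22830, a relative of the plastid ycf49 protein of algae, was at 58.7 to 88.8 (median 68.4) and then at 34.2 to 45.6 (median 37.2), a log2 change of -0.89 (SE 0.14). AT4G31530, an NAD(P)-binding Rossmann-fold protein, was at 49.5 to 53.3 and then at 28.2 to 29.3, a log2 change of -0.86 (SE 0.07). Quantile scaling gives equal ranks equal values, so this narrow range and small SE reflect steps in rank. As deposited, AT4G31530 was at 41.7 to 52.4 in darkness and 32.0 to 36.9 in light. With arrays centred on their 75th percentiles the log2 changes of AT2G27290, AT4G22830 and AT4G31530 were -0.44, -0.21 and -0.11, and their groups overlapped. Those of AT4G22830 overlapped on the deposited values too. Between the lowest dark and the highest light rank of these 3 genes lay 9, 3 and 11 ranks. The fourth, AT4G19900, kept a log2 change of -0.91 under that centring.

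Of 5 members that encode oxidoreductases or NAD(P)- and flavin-binding proteins, AT3G04650 had the largest difference. It is an FAD- and NAD(P)-binding oxidoreductase and lay between 2.56 and 3.48 in darkness (median 2.95) and between 1.19 and 1.42 in light (median 1.35), a log2 change of -1.18 (SE 0.10). AT4G27250, related to dihydroflavonol reductases, was 2.01-fold lower in light by its mean log2 levels. AT4G29120, of the 6-phosphogluconate dehydrogenase family, had a log2 change of -0.67 (SE 0.19), and its groups overlapped under each other scaling but median centring. AT3G03890, an FMN-binding protein, had a log2 change of -0.58 (SE 0.10), and its groups overlapped after cyclic loess. The last gene's dark arrays lay between 1.42 and 1.84 and its light arrays between 1.02 and 1.39.

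Mitochondrial and nuclear pore proteins were 3 of the members, with log2 changes between -1.03 and -0.50. AT4G39690 encodes the mitofilin that shapes the cristae of the inner mitochondrial membrane, and it lay between 1.47 and 1.89 in darkness (median 1.57) and between 0.547 and 1.12 in light (median 0.810). Its log2 change was -1.03 (SE 0.16). AT1G62150, of the mitochondrial transcription termination factor family, had a log2 change of -0.88 (SE 0.16). AT3G16310, a nuclear pore protein, lay between 1.05 and 1.26 and then between 0.666 and 0.917 (log2 change -0.50, SE 0.10). Both RNA-binding members, AT2G28540 and AT3G59980, had log2 changes of -1.01 (SE 0.18) and -0.40 (SE 0.09), the latter a relative of the tRNA-binding cofactor Arc1p of yeast. The groups of AT2G28540 overlapped after cyclic loess.

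The largest difference over all 12 arrays was that of AT2G46300, a protein of the late embryogenesis abundant, hydroxyproline-rich class. In darkness its arrays were within 1.38 to 1.57 (median 1.45), whereas in light they were between 0.0834 and 0.519 (median 0.387). The log2 change of -2.22 (SE 0.39) was -1.84 without light replicate 1, the lowest array. AT5G66090 (-2.30), AT2G31800 (-2.18) and CUTA (-1.90) were then among the genes with larger differences. AT3G04210, of the TIR-NBS class of disease resistance proteins, lay between 0.526 and 0.721 and then between 0.167 and 0.282, a log2 change of -1.60 (SE 0.14).

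Many of the members have no role that can be stated here, and 34 of the 62 are given without one. Of these, 1 was lower by over 4-fold, 14 by 2- to 4-fold and 19 by under 2-fold. AT5G66090 was second in size, from 1.28 to 1.67 in darkness to 0.212 to 0.601 in light (log2 change -2.11, SE 0.21). AT1G51350 had the widest clear space between the groups, with its lowest dark array (4.40) at 2.72 times its highest light array (1.62) and a log2 change of -1.82 (SE 0.11). AT1G18290 went from 1.04 to 1.41 down to 0.258 to 0.456 (log2 change -1.73, SE 0.15). AT2G21720 went from 0.586 to 0.972 down to 0.210 to 0.344 (log2 change -1.61, SE 0.16). AT5G27560 was the dimmest of the 10 members with the largest differences, at 0.118 to 0.203 in darkness and 0.0286 to 0.0546 in light (log2 change -1.94, SE 0.19), and its log2 change was -0.20 with the floor at the 25% quantile. Among the bright ones, AT3G52070 went from 3.51 to 4.82 in darkness to 1.44 to 1.76 in light (log2 change -1.40, SE 0.11) and AT2G46220 from 7.31 to 12.4 to 3.20 to 5.06 (log2 change -1.15, SE 0.17).

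**Figure D3:**
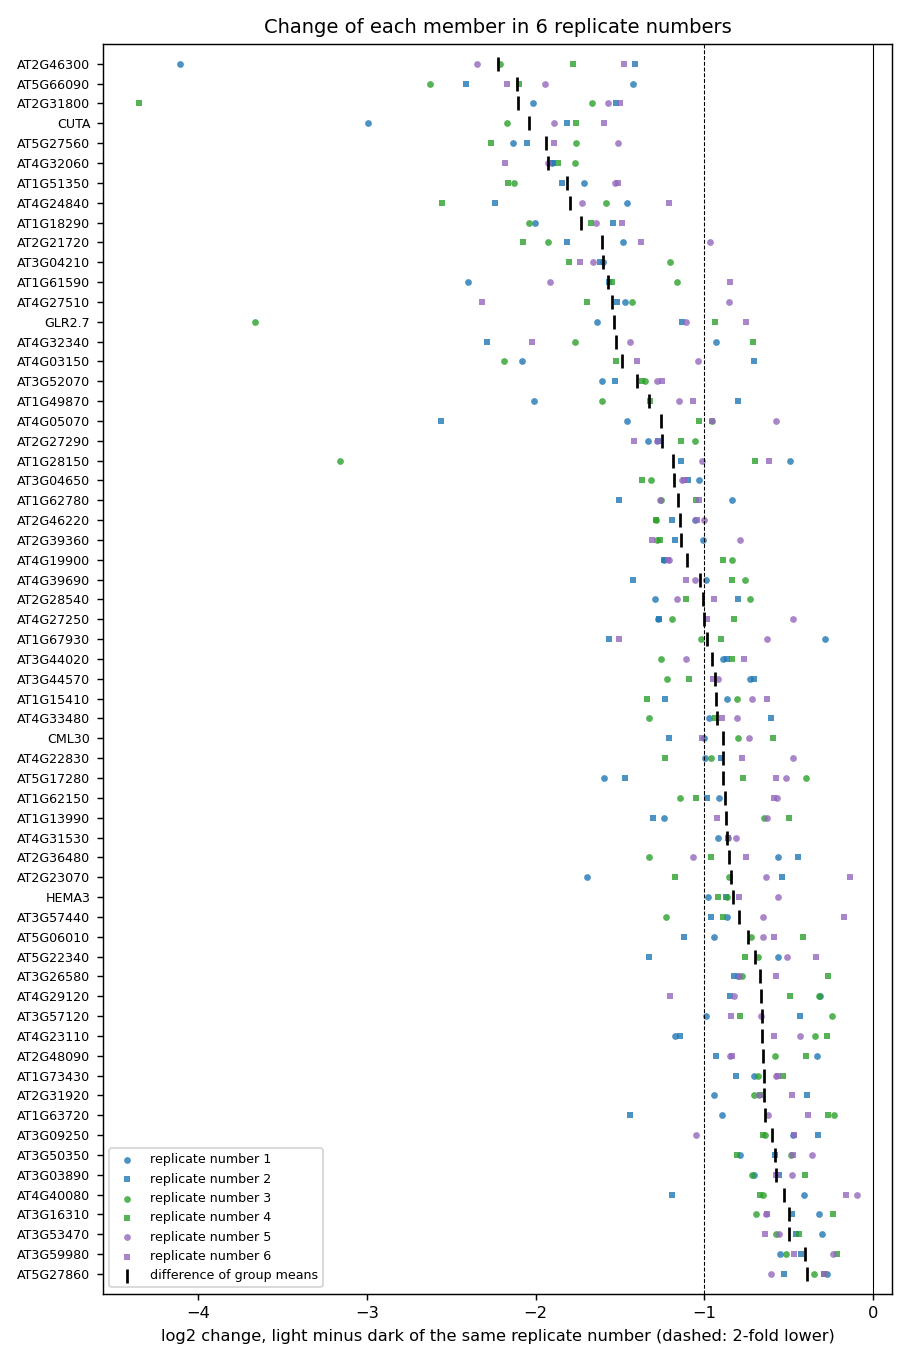
Log2 change of the 62 members, light minus dark array of the same replicate number, ordered by the difference of group means (black ticks). Circles and squares in 1 colour are consecutive numbers, and all points lie left of 0 because of the rank rule. The spread is widest for AT2G46300, AT2G31800, GLR2.7 and AT1G28150, where a single number reaches far to the left.

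The spread among arrays was larger in light for most members and for most eligible probes. The median SD within a group was 0.19 in darkness and 0.27 in light on the log2 scale, and for 46 of the 62 members (74.2%) it was larger in light. Among all 494 eligible probes the medians were 0.27 and 0.32 and the SD was larger in light for 303 (61.3%), members included. The rule favours low spread, and the difference from the other probes was not tested. Within a pair of consecutive numbers the members' median SD was 0.09 in darkness and 0.18 in light. The SD between the means of pairs was 0.16 and 0.20. It is a spread of averaged arrays and the former one of single arrays, so their sizes are not directly comparable. By replicate number, the median change of the members ran from -0.84 in number 5 to -1.16 in number 2. Between 26 and 36 members were over 2-fold lower in a given number, and 14 were so in all 6. The shares of eligible probes by number were not taken, so these counts describe the selection. In light, 26 members had their lowest pair mean at numbers 1 and 2, 22 at numbers 3 and 4, and 14 at numbers 5 and 6.

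The rank rule was met by narrow margins for some genes. The median member had 110 ranks between its lowest dark and highest light rank, and the range was 1 to 708. AT3G04210 had the 708 ranks. AT3G57120, a protein kinase, had 1 rank, with its lowest dark value at 0.628 and its highest light value at 0.627, and its groups overlapped after cyclic loess. AT2G28540 and AT4G22830 had 3 ranks each, and AT3G03890 and AT3G44020 had 5 each. Just outside the rule, AT4G18180 had a gap of 0 ranks, with its lowest dark and highest light values both at 3.68. AT3G61680 overlapped by 4 ranks, and AT1G01080 and AT1G78620 by 5 each, with log2 changes of -1.45, -0.25 and -0.37. That of AT3G61680 was -0.0047 with the floor at the 25% quantile. The lowest dark value exceeded the highest light value by more than 1.5-fold for 19 members. The share of eligible probes with such a margin was not taken, and the rule itself chose genes whose groups are apart.

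The scaling of the arrays changed the sizes of these differences. The rule fixes the direction under quantile scaling and favours it under the other scalings, so only sizes and overlaps are given for them. The members' groups did not overlap for 57 on the values as deposited, 62 with arrays centred on medians, 50 with arrays centred on 75th percentiles and 56 after cyclic loess. Over all 494 eligible probes the groups were apart, with light lower, for 22.9%, 23.7%, 14.2% and 14.8% under these scalings, against 15.0% after quantile scaling. Over 2-fold lower were 49, 43, 30 and 26 members, against 29 after quantile scaling. The same size was met by 16.6%, 13.0%, 8.30% and 9.92% of the eligible probes, against 10.1% after quantile scaling. These shares include the members, which the rule chose on the same arrays. The median change of all probes was itself -0.21 on the values as deposited and 0.16 with 75th percentile centring, so every change is stated relative to the rest of its array.

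**Figure D4:**
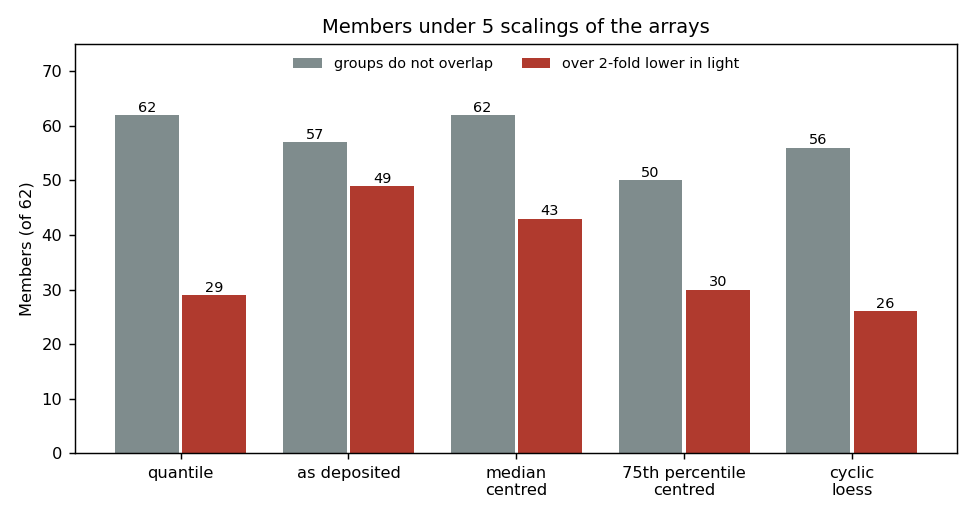
Number of the 62 members (y axis, from 0) whose dark and light arrays did not overlap (grey) and that were over 2-fold lower in light (red), under 5 scalings of the arrays. Under quantile scaling 62 and 29 members met these, and with 75th percentile centring 50 and 30.

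For 4 members a second probe listed the gene together with others. The probe shared by AT2G46220 and 2 more genes was at 0.148 to 0.339 in darkness and 0.246 to 0.364 in light. The probe that lists AT4G31530 among 3 genes was at 0.416 to 0.781 and then at 0.689 to 0.950, and the one that lists AT4G32340 among 4 genes was at 0.383 to 0.587 and then at 0.424 to 0.663. All 3 had higher means in light, with log2 changes of 0.27 (SE 0.18), 0.53 (SE 0.15) and 0.26 (SE 0.15). The probe that lists AT3G03890 among 3 genes was at 0 on 10 of 12 arrays. Which of the listed genes such a probe measures is not given, so these values do not bear on the member alone.

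None of the members belonged to the 13 gene lists set for plastid pathways, the clock, dark-induced genes and tissue markers. This was largely set in advance, by the few list loci with a single-gene probe and by the names left out. Of the 179 loci on these lists, 9 had a single-gene probe. By limma with Benjamini-Hochberg adjustment over all probes, 4 of the 9 had higher levels in light, 2 had lower levels and 3 (PSB27, FATB and AT1G24360) stayed above the threshold. For comparison, 20.5% of all probes tested were called lower and 19.9% higher. Both lower genes, AT-HF of histidine synthesis (log2 change -1.87, adjusted p = 2.4e-07) and PSBW of photosystem II (log2 change -1.20, adjusted p = 1.5e-05), are among the names left out of the rule. PSBW did not pass under 75th percentile centring (adjusted p = 0.067). The genes higher in light were PSAN, PSBY, LHB1B2 and AT1G68660, an adaptor of the plastid Clp protease. With consecutive numbers averaged, their limma adjusted p was 0.0029, 0.010, 0.016 and 0.031. PSBY did not pass on the values as deposited (adjusted p = 0.063) and AT1G68660 not without replicates 3 and 4 (adjusted p = 0.098). The lists for starch, isoprenoids, protein import, amino acids, the clock and dark-induced genes had no single-gene probe, so no member could come from them.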

How the data were processed

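Transcripts were measured on arrays in 12 samples, 6 from darkness and 6 after 1 h of light, grouped by the sample labels. The deposited values are linear intensities, 1 for each probe of an array. Scanning, background correction and scaling by the authors are not given in the sources used here. The column medians (0.204 to 0.289) differ, so quantile normalization was applied before a floor of 0.00675 (the 1% quantile of positive values) and log2. The filter dropped 473 of 3439 probes, those at the floor on more than 6 arrays. Light was compared with dark by limma 3.58.1 under R 4.3.3 (lmFit, eBayes, two-sided, Benjamini-Hochberg, threshold 0.05), and figures were drawn with matplotlib 3.10.9.

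Ranks were taken over all probes of an array with ties averaged. Gene names came from an old platform annotation matched to a TAIR10.1 gene table (690 of 692 probes), and 58 members carry only a locus name. Roles of these loci are general background and are not in the files. Members and lists were chosen with earlier results of these data known. Named were the members with a symbol, the 10 largest differences, the 8 brightest, the smallest rank gaps (5, with a tie), the 4 nearest outside, and further members with a role, picked after their values were seen. Dark and light deviations of the same replicate number correlated at 0.301 to 0.557 over 1483 probes, so the numbers appear to pair the samples, although the labels do not say so. The number of arrays limits the precision. No sequences were used here.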

Additional observations from a re-analysis of the deposited data

Results flagged for a closer look

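Among 80 sets of 6 values (40 genes in 2 groups), 6 held 1 array set well apart from the remaining 5 for the width of the set (log2 scale). For unselected values without ties, chance gives this in about 1 set in 20. Some of these genes were named for their large differences and scaled values can be tied, so that rate need not hold here. In light, GLR2.7 was at 0.0415 in replicate 3 where the other arrays had a median of 0.234, and AT2G46300 was at 0.0834 in replicate 1 against 0.458. AT2G31800 stood low in replicate 4 of both groups, at 0.256 in darkness against 0.522 and at 0.0126 in light against 0.175. Replicate 5 in darkness was low for AT4G31530, at 49.5 against 53.3, and for AT3G03890, at 1.42 against 1.77. For AT4G31530 the other dark arrays shared the same scaled value, so a small step in rank was enough. As deposited, its dark arrays ranged from 41.7 to 52.4. All 6 values are scaled intensities and all were the lowest of their set.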

How the results depend on the processing

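Leaving out arrays can only add genes to the rule: between 63 and 69 met it without any 1 array. It was met by 102 genes without replicates 1 and 2 of both groups, 89 without 3 and 4, 85 without 5 and 6, and 120 with mean ranks of consecutive numbers, where 3 values a group have to agree. A gap of at least 5% of the probes left 20, and the share of eligible probes with such a gap was not taken. The median log2 change of the members, -0.95, was -1.36 on the values as deposited, -1.24 with arrays centred on their medians and -1.04 without replicates 5 and 6, and between -0.93 and -0.999 without any 1 array. The rule fixes the sign of its members when arrays are left out, so signs are not given as stability. Of 840 values of the 36 named members and the 4 genes just outside, 767 stayed within 1 SD of the gene's arrays and 73 moved further. Leaving out a single array can hardly move a group mean by 1 SD, and noisy genes have a wide SD. These counts are therefore not given as stability. The count of probes called lower by limma was 609, with 673 in the fit with the replicate number as a block, 879 on the values as deposited, 541 with 75th percentile centring, 408 with consecutive numbers averaged and between 548 and 608 without any 1 array. With a floor at the 25% quantile, the dim AT5G27560 had a log2 change of -0.20 and AT4G24840 one of -0.79. Of the genes named as not passing, AT1G24360, PSB27 and CML41 changed sign and FATB did not. AT1G24360 was lower in light on the values as deposited (log2 change -0.48, limma adjusted p = 0.020) and with median centring (-0.37, adjusted p = 0.0091), and at -0.12 with 75th percentile centring. PSB27 was at -0.43, -0.31 and -0.058 under these 3 scalings, at -0.0021 with array weights, at -0.36 without replicates 1 and 2 of both groups (adjusted p = 0.033), and between -0.44 and 0.25 without any 1 array. FATB passed without replicates 1 and 2 (log2 change -2.66, adjusted p = 0.014). CML41 was at -0.31 as deposited, at -0.20 with median centring and between -0.013 and 0.17 without any 1 array. The counts of members apart under other scalings, and of members over 4-fold lower without any 1 array (2 to 5), were added after the data were seen.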
